A study of Mus musculus with 50 samples.

Results

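*Jarid2*, *Aebp2*, *Mtf2*, *Phf1* and *Phf19* encode 5 accessory subunits of Polycomb repressive complex 2 (PRC2), and are described here in mouse embryonic stem cells (ESCs). The genes were taken by name, and all 5 were found among the 18055 genes of the RNA-seq table. Each had a mean normalized count of at least 5 over the libraries, the filter that left 13872 genes for testing. RNA-seq was available for 4 lines with 2 libraries each. The first was the wild-type line E14 (WT), and *Ezh2* KO cells lacked the PRC2 methyltransferase *Ezh2*. *Ezh1/2* dKO cells lacked *Ezh2* and its paralog *Ezh1*, and *Ezh2* Y726D cells carried a point mutation of *Ezh2* that removes catalytic activity, in an *Ezh1* KO background. ChIP-seq peak lists, with 1 library per line and target, also covered *Ezh2* R685C cells (a further point mutation in an *Ezh1* KO background). They also covered *Ezh1/2* dKO cells transfected with HA-tagged human EZH1, for which untransfected *Ezh1/2* dKO cells were the control. All mutant lines were made by CRISPR/Cas9 in E14 cells grown in serum with LIF and 2 kinase inhibitors (2i), the knockouts by excision of the gene. The study's Reporting Summary describes samples as biological replicates, but how many clones stood for each line, and whether the 2 RNA-seq libraries of a line were separate cultures or clones, is not given in the sources used here, so p-values measure the spread between these libraries, which may in part be technical.

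PRC2 methylates lysine 27 of histone H3 (H3K27), and its trimethylated form H3K27me3 marks silent developmental genes in ESCs. Its core holds EZH1 or EZH2 with EED, SUZ12 and RBBP4 or RBBP7, and accessory subunits bind SUZ12 in alternative sets that direct the complex to chromatin. One form of the complex contains JARID2, a catalytically inactive relative of the KDM5 demethylases, together with the zinc finger protein AEBP2. The other contains one Polycomb-like protein, PHF1, MTF2 or PHF19, each of which has a Tudor domain, PHD fingers and a winged helix that binds unmethylated CpG-rich DNA.

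Sequences of 4 windows of 300 bases each are shown, with CpG dinucleotides, which Polycomb-like proteins bind, in capitals. Whether the sequences bear on the chromatin results was not tested. All are from mm9, 5′ to 3′ along the strand of the gene. The first lies around the summit of the WT SUZ12 peak in *Phf19*, 580 bp inside the gene, in the first intron of Phf19-001 and outside every annotated exon (chr2:34768766-34769065, minus strand). The others end 1 base before the start of the longest coding transcript of *Phf19* (chr2:34769497-34769796, minus strand), *Mtf2* (chr5:108494461-108494760, plus strand) and *Aebp2* (chr6:140571916-140572215, plus strand).
Phf19 SUZ12 summit: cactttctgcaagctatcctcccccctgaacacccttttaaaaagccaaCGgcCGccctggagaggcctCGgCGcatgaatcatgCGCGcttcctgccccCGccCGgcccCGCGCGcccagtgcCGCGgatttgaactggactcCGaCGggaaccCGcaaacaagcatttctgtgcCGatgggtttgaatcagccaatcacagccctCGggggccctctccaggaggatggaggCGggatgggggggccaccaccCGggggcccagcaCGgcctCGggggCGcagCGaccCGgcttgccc
Phf19 upstream: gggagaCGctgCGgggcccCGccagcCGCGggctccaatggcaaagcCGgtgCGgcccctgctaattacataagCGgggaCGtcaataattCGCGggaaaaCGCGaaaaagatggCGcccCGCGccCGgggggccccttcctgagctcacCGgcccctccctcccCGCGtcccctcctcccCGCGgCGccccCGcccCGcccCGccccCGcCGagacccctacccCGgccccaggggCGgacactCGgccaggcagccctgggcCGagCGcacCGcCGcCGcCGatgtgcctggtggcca
Mtf2 upstream: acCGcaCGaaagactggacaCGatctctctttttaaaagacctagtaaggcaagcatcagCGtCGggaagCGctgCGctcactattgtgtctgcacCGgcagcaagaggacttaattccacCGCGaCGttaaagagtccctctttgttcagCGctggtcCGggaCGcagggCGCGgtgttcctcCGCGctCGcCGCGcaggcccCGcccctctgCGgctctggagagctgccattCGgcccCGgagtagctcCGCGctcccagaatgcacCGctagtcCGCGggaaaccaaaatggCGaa
Aebp2 upstream: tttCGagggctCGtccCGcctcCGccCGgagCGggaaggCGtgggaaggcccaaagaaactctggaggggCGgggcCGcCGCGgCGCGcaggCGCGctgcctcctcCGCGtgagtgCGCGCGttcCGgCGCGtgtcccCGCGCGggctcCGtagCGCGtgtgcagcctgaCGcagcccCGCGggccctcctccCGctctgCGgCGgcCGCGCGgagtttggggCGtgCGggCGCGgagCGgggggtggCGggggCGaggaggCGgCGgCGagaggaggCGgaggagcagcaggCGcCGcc
The summit window held 25 CpG at a GC content of 67.3%. Upstream of the starts, *Phf19* had 37 CpG, *Mtf2* 31 and *Aebp2* 51, and in the same windows of the remaining members *Jarid2* had 25 and *Phf1* 24. The median over the 17419 promoters compared was 14, and as many CpG as in *Aebp2* were found in 0.901% of them, as in *Phf19* in 6.87%, as in *Mtf2* in 12.6%, as in *Jarid2* in 22.9% and as in *Phf1* in 25.1%. The median was 18 for promoters with WT SUZ12 within 5 kb and 13 for the others. All 5 members were thus above each of these medians in CpG, whether or not SUZ12 was found at them.

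The targeted genes followed the labels of the lines. *Ezh2* had 448 and 567 reads in WT, 1 and 1 in *Ezh2* KO, 1 and 2 in *Ezh1/2* dKO, and 473 and 548 in *Ezh2* Y726D cells. *Ezh1* had 170 and 392 reads in WT and 356 and 391 in *Ezh2* KO cells, against 17 and 23 in *Ezh1/2* dKO and 27 and 14 in *Ezh2* Y726D cells. Libraries held between 3604123 and 5181553 reads on genes. All 10 ESC markers had reads in every line, with a summed normalized count of 10820 to 13070. The 5 fibroblast markers summed to 4.814 to 12.01 in WT, 14.51 to 16.73 in *Ezh2* KO, 105.5 to 116.3 in *Ezh1/2* dKO and 86.14 to 88.27 in *Ezh2* Y726D cells, of which 76.07 to 101.2 in the last pair of lines was *Thy1*. Of these 5 markers, *Ezh1/2* dKO cells had reads of all, while 2 had none in *Ezh2* Y726D, 1 in *Ezh2* KO cells and 3 in WT, and their part in the values below was not tested. In these bulk samples fewer cells of a type and less RNA per cell cannot be told apart.

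The 5 genes had widely different RNA levels. Duplicate reads had been removed before counting, and the part of that step in these levels was not tested. By mean normalized count over the 8 libraries, *Jarid2* ranked 26 and *Mtf2* 43 of 18055 genes, *Aebp2* 3126, *Phf1* 11586 and *Phf19* 12521. Per length, as RPKM (reads on the gene scaled to its exon length and to all reads on genes), *Mtf2* was highest with a median of 112 over the libraries and none under 96.2, and *Jarid2* followed with 65.1 (46.4 to 77.5). *Aebp2* had a median level of 12.7 (6.28 to 15.5), *Phf1* of 1.51 (0.914 to 3.04) and *Phf19* of 0.365 (0.0855 to 1.09). *Phf1* was above *Phf19* in each of the 8 libraries, although the ranges over all libraries overlapped. The gap between *Mtf2* and *Jarid2* depended on the length used, since per kilobase of the longest coding transcript *Mtf2* ran from 125 to 154 and *Jarid2* from 75.1 to 126, and *Mtf2* shares 395 exon bases with *Tmed5* on the opposite strand, whose reads the unstranded counting could not separate. *Phf1* and *Phf19* therefore rest on few reads, with 8 to 30 per library for *Phf1* and 2 to 27 for *Phf19*.

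**Figure D1:**
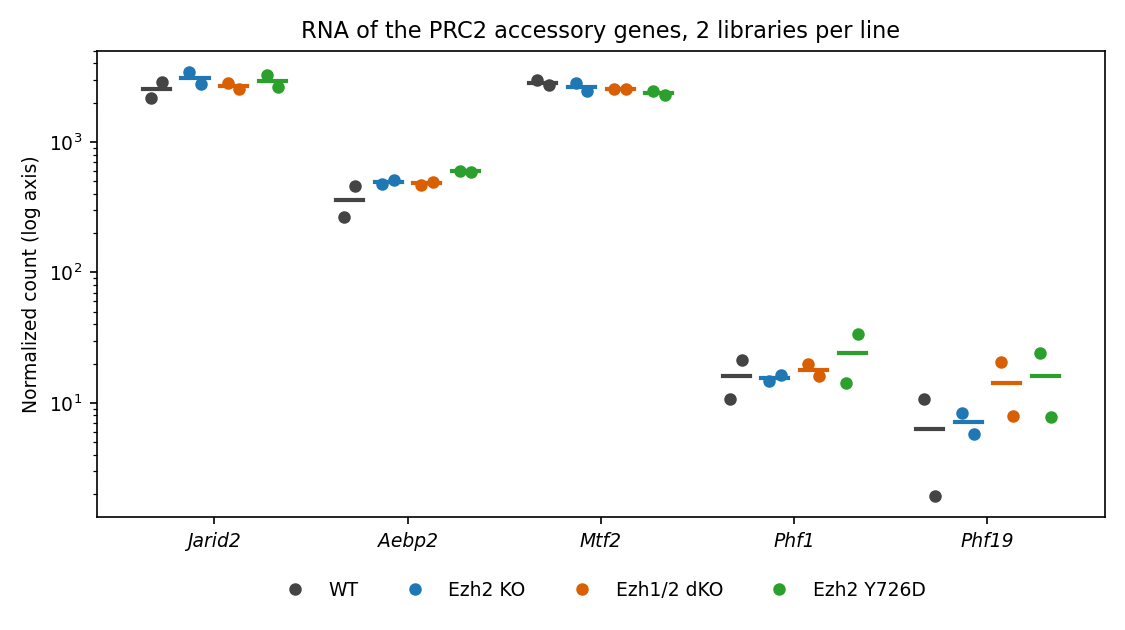
Normalized count (log axis) of the 5 accessory genes in each of the 8 RNA-seq libraries, as 1 point per library and a bar at the mean of the 2 libraries of a line. *Jarid2* and *Mtf2* lie between 2166 and 3439, *Aebp2* between 264.1 and 596.5, and *Phf1* and *Phf19* at or below 33.56. For *Aebp2* each mutant library lies above both WT libraries, a pattern not counted over all tested genes.

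None of the 5 genes was called changed against WT in any mutant line, where a call needed a limma adjusted p under 0.1 and a change of at least 1 on the log2 scale. These calls concern RNA, not protein. For JARID2, MTF2 and PHF19 protein, the paper reports a behaviour in western blots similar to that of SUZ12 and EED. It describes SUZ12 and EED as destabilized in *Ezh1/2* dKO but not in *Ezh2* Y726D cells. The calls over all tested genes came to 4.02% in *Ezh1/2* dKO, 2.72% in *Ezh2* Y726D and 0.404% in *Ezh2* KO cells, shares at which 0 of 5 genes do not stand apart. At an unadjusted p under 0.05, limma found 0 members in *Ezh2* KO, 0 in *Ezh1/2* dKO and 1, *Aebp2*, in *Ezh2* Y726D cells, where 8.83%, 18.6% and 14.3% of all tested genes had such a p, so that 1 of 5 is near the background. The reads recovered from the table also gave 0 calls, by edgeR and by DESeq2, in each line. The median log2 fold change of the members was 0.51 in *Ezh2* Y726D, 0.30 in *Ezh2* KO and 0.22 in *Ezh1/2* dKO cells, beside -0.01, -0.01 and 0.01 over all tested genes. All fold changes are on the scale of log2(normalized count + 1), and the 3 comparisons share the WT libraries. With 2 libraries per line, limma recovered 86% of genes changed 4-fold in simulated data, so that smaller changes could be missed. This share was not worked out for genes with as few reads as *Phf1* and *Phf19*. For these members, even a 4-fold change could be missed.

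JARID2 can be methylated by PRC2 and then stimulates the complex through EED. *Jarid2* had normalized counts of 2166 and 2890 in WT, 3439 and 2779 in *Ezh2* KO, 2851 and 2555 in *Ezh1/2* dKO, and 3239 and 2614 in *Ezh2* Y726D cells. In each mutant line at least 1 library lay within the WT range, and the libraries of WT differed more than the means of the lines. The log2 fold change was 0.30 ± 0.17 (SE, n = 2 per line) in *Ezh2* KO (limma adjusted p = 0.669), 0.11 ± 0.17 in *Ezh1/2* dKO (0.771) and 0.22 ± 0.17 in *Ezh2* Y726D cells (0.667). Its 95% confidence interval (CI) reached from -0.28 to 0.50 in *Ezh1/2* dKO cells, and without replicate 1 of WT the *Ezh1/2* dKO value turned to -0.10. The 3 tested relatives of *Jarid2*, *Kdm5a*, *Kdm5b* and *Kdm5c*, which encode H3K4 demethylases, were not called in any line either, with log2 fold changes between -0.23 and -0.02, while *Kdm5d* had 0 to 2 reads and was not tested.

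AEBP2 stabilizes the complex and contacts nucleosomes together with JARID2. *Aebp2* had 264.1 and 456.4 normalized counts in WT, 472.6 and 513.8 in *Ezh2* KO, 471.5 and 489.2 in *Ezh1/2* dKO, and 596.5 and 590.7 in *Ezh2* Y726D cells. Every one of the 6 mutant libraries was thus above both WT libraries, the only member for which this held. The share of all tested genes with this pattern was not counted, so it is given as a description. The log2 fold change was 0.50 ± 0.23 (SE, n = 2 per line) in *Ezh2* KO (limma adjusted p = 0.571), 0.47 ± 0.23 in *Ezh1/2* dKO (0.304) and 0.77 ± 0.23 in *Ezh2* Y726D cells (0.146). In the last line the fold was 1.71, with a 95% CI of 1.2 to 2.43, and the unadjusted limma p of 0.0075 did not pass the correction over all genes. The size rested on WT, in which *Aebp2* had 198 reads in replicate 1 and 474 in replicate 2. Without WT replicate 2, the change in *Ezh2* Y726D cells was 1.17 and called (limma adjusted p = 0.0293), and without WT replicate 1 it was 0.38 (0.308). The corresponding values were 0.90 and 0.11 in *Ezh2* KO and 0.86 and 0.07 in *Ezh1/2* dKO cells. DESeq2 gave *Aebp2* a log2 fold change of 0.71 in *Ezh2* Y726D cells with an adjusted p of 0.083, below the fold that a call required.

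MTF2 is the main Polycomb-like protein of ESCs. *Mtf2* had normalized counts of 2963 and 2720 in WT, 2851 and 2458 in *Ezh2* KO, 2536 and 2554 in *Ezh1/2* dKO, and 2466 and 2306 in *Ezh2* Y726D cells. Both libraries of *Ezh1/2* dKO and of *Ezh2* Y726D cells lay below both of WT, whereas *Ezh2* KO overlapped WT. How often 2 libraries separate in this way over all tested genes was not counted. The differences were small, at -0.10 ± 0.12 (SE, n = 2 per line) on the log2 scale in *Ezh2* KO (limma adjusted p = 0.853), -0.16 ± 0.12 in *Ezh1/2* dKO (0.499), where quantile normalization turned the value to 0.07, and -0.25 ± 0.12 in *Ezh2* Y726D cells (0.373). The 95% CI of *Mtf2* in *Ezh2* Y726D cells ran from -0.51 to 0.01 on the log2 scale. With 2 libraries per line, a larger fall is not excluded.

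PHF1 and PHF19 bind trimethylated lysine 36 of H3 through their Tudor domains, and both genes had low levels here. *Phf1* had 10.67 and 21.18 normalized counts in WT, 14.64 and 16.45 in *Ezh2* KO, 19.78 and 15.98 in *Ezh1/2* dKO, and 14.27 and 33.56 in *Ezh2* Y726D cells. The WT range held all libraries of *Ezh2* KO and *Ezh1/2* dKO cells. The log2 fold changes of 0.51, 0.04 and 0.22 (SE 0.54 each, n = 2 per line) in *Ezh2* Y726D, *Ezh2* KO and *Ezh1/2* dKO cells had limma adjusted p of 0.766, 0.99 and 0.855. The sign was not stable, since edgeR and DESeq2 gave -0.05 in *Ezh2* KO, quantile normalization gave -0.40 in *Ezh1/2* dKO, and leaving out 1 library gave as little as -0.08 in *Ezh2* Y726D cells.

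*Phf19* had 10.67 and 1.926 normalized counts in WT, 8.364 and 5.806 in *Ezh2* KO, 20.61 and 7.991 in *Ezh1/2* dKO, and 24.07 and 7.831 in *Ezh2* Y726D cells. One library of *Ezh1/2* dKO and one of *Ezh2* Y726D cells exceeded the WT range, and the other library of each lay inside it. Summed over libraries, *Ezh1/2* dKO and *Ezh2* Y726D cells had 34 reads each, *Ezh2* KO cells 14 and WT 10. The log2 fold change was 0.45 ± 0.82 (SE, n = 2 per line) in *Ezh2* KO (limma adjusted p = 0.91), 1.25 ± 0.82 in *Ezh1/2* dKO (0.444) and 1.35 ± 0.82 in *Ezh2* Y726D cells (0.525). A change of *Phf19* was not detected, and the 95% CI in *Ezh2* Y726D cells, from -0.50 to 3.19, left room for a fall as well as for a several-fold rise. Leaving out a WT library moved the values of *Phf19* to 0.26 and 2.25 in *Ezh1/2* dKO and to 0.35 and 2.35 in *Ezh2* Y726D cells, and in *Ezh2* KO cells it turned the sign to -0.55 without replicate 2.

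**Figure D2:**
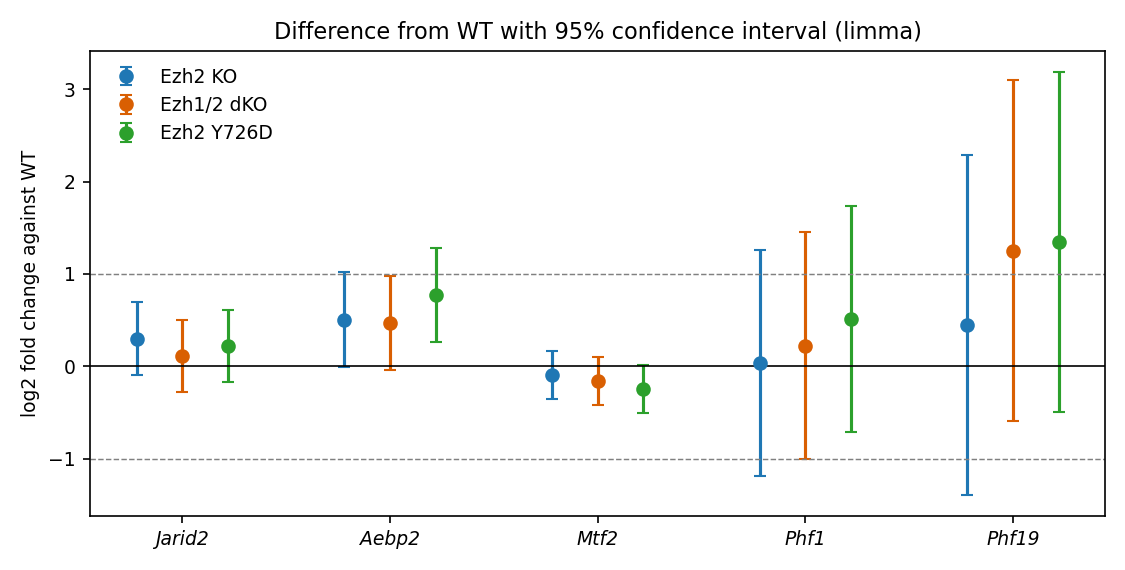
Log2 fold change of each accessory gene against WT in the 3 mutant lines (colours), with points at the limma estimate (n = 2 libraries per line), bars for the 95% CI and dashed lines at the fold needed for a call. The CI excludes 0 for *Aebp2* in *Ezh2* Y726D cells alone (0.26 to 1.28), and the widest intervals are those of *Phf19*.

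Direct comparison of the mutant lines called no member. *Ezh1/2* dKO against *Ezh2* KO cells, where 3.58% of all tested genes were called, gave 0 calls by limma, edgeR and DESeq2 and, by limma, 0 members at an unadjusted p under 0.05 (13.4% of all genes). The same held for *Ezh2* Y726D against *Ezh1/2* dKO (1.68% of all genes called, 13.1% at the unadjusted p) and against *Ezh2* KO cells (3.53% and 15.8%). *Phf19* had the largest of these differences, 0.80 ± 0.82 on the log2 scale between *Ezh1/2* dKO and *Ezh2* KO (limma adjusted p = 0.758), which quantile normalization turned to -0.03, and 0.90 ± 0.82 between *Ezh2* Y726D and *Ezh2* KO cells (0.675). *Aebp2* was higher in both libraries of *Ezh2* Y726D than in those of *Ezh1/2* dKO (0.30 ± 0.23, limma adjusted p = 0.636) and *Ezh2* KO cells (0.27 ± 0.23, 0.643). Such separation of libraries was not counted over all tested genes. The 95% CI of *Jarid2* between *Ezh2* Y726D and *Ezh1/2* dKO cells was -0.28 to 0.50, and that of *Mtf2* was -0.36 to 0.17.

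Among the listed partners of these proteins, the targeted genes were called and no others. Of the 6 core genes of PRC2, limma called 1 lower in *Ezh2* KO (*Ezh2*), 2 lower in *Ezh1/2* dKO (*Ezh1* and *Ezh2*) and 1 lower in *Ezh2* Y726D cells (*Ezh1*), and 0 higher in any. *Suz12*, which encodes the subunit that holds the accessory proteins, had log2 fold changes of 0.22, 0.15 and -0.11 in *Ezh1/2* dKO, *Ezh2* KO and *Ezh2* Y726D cells (limma adjusted p = 0.45, 0.806 and 0.815), and *Eed* and the histone chaperones *Rbbp4* and *Rbbp7* lay between -0.47 and -0.05. Of 6 genes for other PRC2-associated proteins 0 were called in any line. *Epop* (listed as E130012A19Rik), whose product joins the Polycomb-like form of PRC2 and binds elongins, was above WT in both libraries of *Ezh1/2* dKO (0.58, limma adjusted p = 0.206) and *Ezh2* Y726D cells (0.55, 0.288). The share of all tested genes that separate from WT in this way was not counted. *Ezhip* (AU022751), an inhibitor of PRC2, differed by 1.28 in *Ezh1/2* dKO cells (0.278). *Lcor*, *Lcorl* and the elongin genes *Tceb1* and *Tceb2* had absolute log2 differences of at most 0.69.

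At the promoters, *Phf19* was the 1 member with SUZ12 peaks in WT and with H3K27me3 in any line, and *Mtf2* had a SUZ12 peak in *Ezh2* Y726D cells at the limit of calling. A promoter was taken as 5 kb on each side of every annotated start of a gene, and the peaks of SUZ12, H3K27me3 and H3K27ac passed a p of 1e-10 (no p is given for HA). In WT cells 1 of 5 members, *Phf19*, had a SUZ12 peak, against 17.2% of 17424 genes, and the same gene alone had H3K27me3, against 22%. The nearest WT SUZ12 peak to any annotated start was at 81843 bp for *Phf1*, 273901 bp for *Mtf2*, 602431 bp for *Aebp2* and 667051 bp for *Jarid2*. WT genes with SUZ12 had a median of 8.15 normalized counts against 121 for the others, and *Phf19*, with a WT mean of 6.299, was above 45.8% of them. With 1 library per line and target, differences between lists have no replicate check, and since the reads behind each list are not in the files, the depth is unknown.

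The WT SUZ12 peaks of *Phf19* lay on both sides of its start. The stronger, at chr2:34768203-34769540, had a -log10 p of 48.9 and a fold enrichment of 15.2, and was stronger than 77.4% of the list. Its summit falls in the intronic window shown above. The weaker, at chr2:34769699-34770325, had 13.6. *Ezh2* Y726D cells had 1 SUZ12 peak at chr2:34768717-34769462 (-log10 p 19.1, stronger than 76.6% of its list), and *Ezh2* R685C cells 1 at chr2:34768372-34769479 (20.8, 57.9%). Both lay inside the stronger WT peak. In *Ezh2* KO cells no SUZ12 peak of the list was closer than 1188187 bp and in *Ezh1/2* dKO cells none closer than 1264670 bp, where 4.86% and 1.17% of all genes had SUZ12, compared with 12.2% in *Ezh2* Y726D and 9.8% in *Ezh2* R685C cells. HA-EZH1 in *Ezh1/2* dKO cells gave a peak at chr2:34768575-34769510, within the stronger WT SUZ12 peak, and the untransfected control none. HA peaks were found at 13.1% of genes with the tag and 3.63% without, and at 1 and 0 members.

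H3K27me3 at *Phf19* was present in WT, *Ezh2* KO and *Ezh2* R685C cells. In WT, 3 peaks covered 3645 bp of the promoter, the strongest from 45 to 2801 bp inside the gene (chr2:34766695-34769451, -log10 p 26.9, stronger than 96.3% of its list). In *Ezh2* KO cells, where no SUZ12 peak was listed there, 2 H3K27me3 peaks covered 3152 bp, with -log10 p of 206.4 at chr2:34767635-34769578 and 58.4 upstream of the start. In *Ezh2* R685C cells a peak of 3126 bp crossed the start (chr2:34767683-34770808, 251.3) and a further peak of 15.4 lay near an internal start. These -log10 p are not comparable between libraries of unknown depth, and within their lists the strongest peaks of *Ezh2* KO and *Ezh2* R685C cells were above 89.6% and 96.2% of peaks. *Ezh1/2* dKO and *Ezh2* Y726D cells had no H3K27me3 at any member, against 0.115% and 1.39% of all genes, while in *Ezh2* KO 17.1% and in *Ezh2* R685C cells 28.1% of all genes had the mark and *Phf19* was the 1 member with it. At *Phf19*, the *Ezh2* Y726D lists thus held SUZ12 but no H3K27me3, and the *Ezh2* KO lists H3K27me3 but no SUZ12. The *Ezh2* KO SUZ12 list holds 1578 peaks against 5404 in WT, and a missing entry does not show that SUZ12 was absent. Over the 12 lists of SUZ12, H3K27me3 and HA, the combination seen at *Phf19*, with a peak in 7, was shared by 393 of 17424 genes (2.26%), and the absence of any peak, as at *Jarid2*, *Aebp2* and *Phf1*, by 11265 (64.7%).

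**Figure D3:**
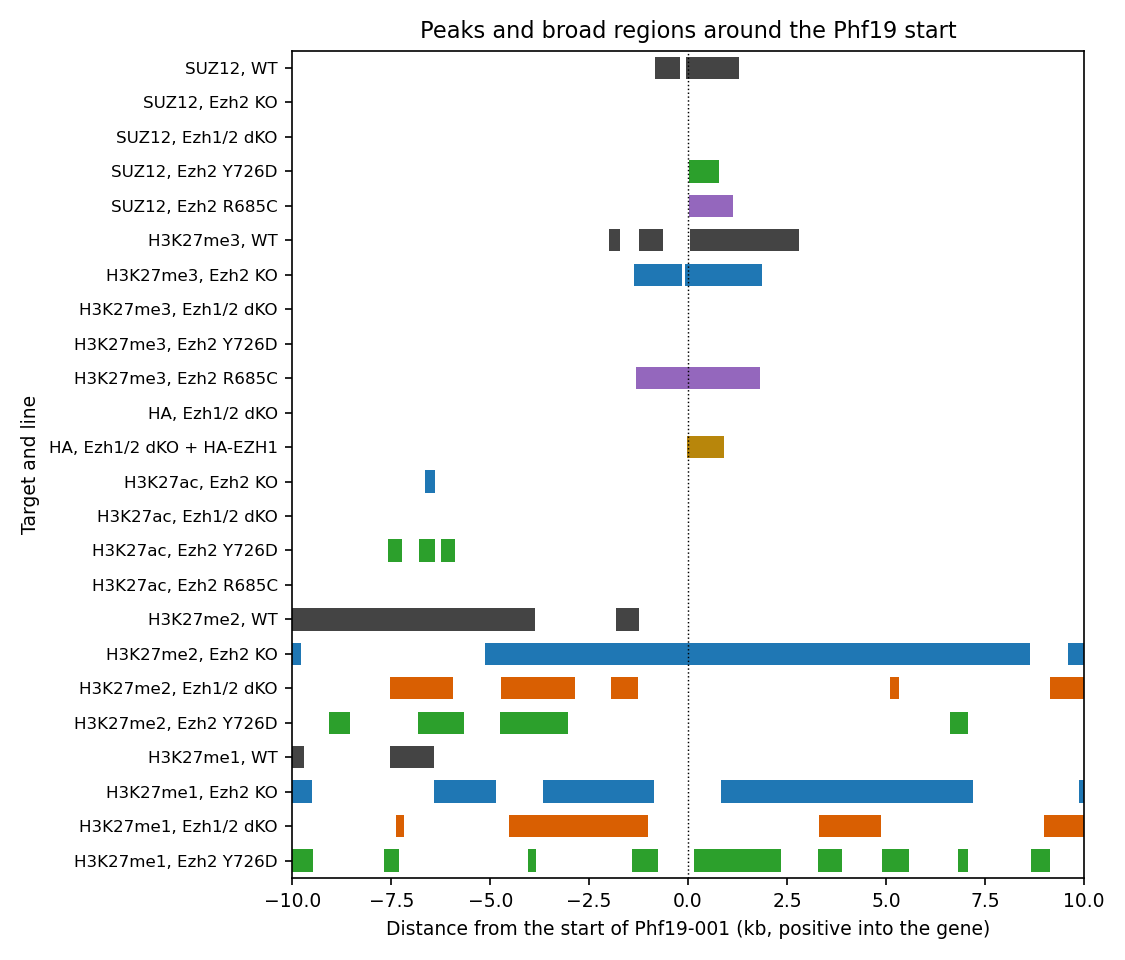
Peaks and broad regions (bars) in each list within 10 kb of the start of Phf19-001, as distance in kb, positive into the gene. The strongest WT SUZ12 peak and the SUZ12 and HA-EZH1 peaks of mutant lines lie at or just inside the start, with a weaker WT SUZ12 peak upstream, H3K27me3 is absent in *Ezh1/2* dKO and *Ezh2* Y726D cells, and in *Ezh2* KO cells 1 H3K27me2 region of 13757 bp spans the start.

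*Mtf2* had a single Polycomb peak, for SUZ12 in *Ezh2* Y726D cells (chr5:108494425-108494692). It ended 1 bp before the first annotated start, within the upstream region shown above in part, and had no H3K27me3 in any line. Its -log10 p of 10 made it number 3365 of 3366 peaks in that list, at the limit of calling, so *Mtf2* raised the count in *Ezh2* Y726D cells to 2 of 5 members only at this limit. At a p of at most 1e-20 neither *Mtf2* nor *Phf19* kept a SUZ12 peak in that line. A SUZ12 peak in *Ezh2* Y726D cells alone of the 12 lists was found at 160 genes (0.918%).

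H3K27ac, a mark of active promoters, was found at the 3 members with higher RNA levels in each line, and at *Phf1* and *Phf19* in few or none. It was listed for mutant lines here, and *Jarid2*, *Aebp2* and *Mtf2* had peaks in each of them. *Jarid2* had 4240 bp under peaks in *Ezh2* KO, 2565 in *Ezh1/2* dKO, 6405 in *Ezh2* Y726D and 9141 in *Ezh2* R685C cells. For *Aebp2* the values were 4632, 2953, 5201 and 6318 bp, and for *Mtf2* 5131, 4002, 6763 and 9951 bp in the same order. All 3 genes were covered least in *Ezh1/2* dKO and most in *Ezh2* R685C cells, the order of the numbers of peaks in the lists, 25483 in *Ezh2* KO, 17618 in *Ezh1/2* dKO, 40829 in *Ezh2* Y726D and 41185 in *Ezh2* R685C cells. The part of list length in this order was not tested. *Phf1* had a peak in *Ezh2* Y726D cells alone, of 333 bp and 149 bp inside the start (-log10 p 17.0), while the nearest peak was at 5074 bp in *Ezh2* R685C, 5383 bp in *Ezh2* KO and 13165 bp in *Ezh1/2* dKO cells. *Phf19* had none in any of the 4 lines, also where H3K27me3 was not found, and its nearest was at 5846 bp in *Ezh2* Y726D, 6339 bp in *Ezh2* KO and over 29 kb away in the others. A missing entry does not show that H3K27ac was absent or unchanged. WT was sampled for H3K27ac, but no WT list was used, so there is no baseline. Counts of members were 3 in *Ezh2* KO (49% of all genes), 3 in *Ezh1/2* dKO (37.1%), 4 in *Ezh2* Y726D (60.4%) and 3 in *Ezh2* R685C cells (59.1%).

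**Figure D4:**
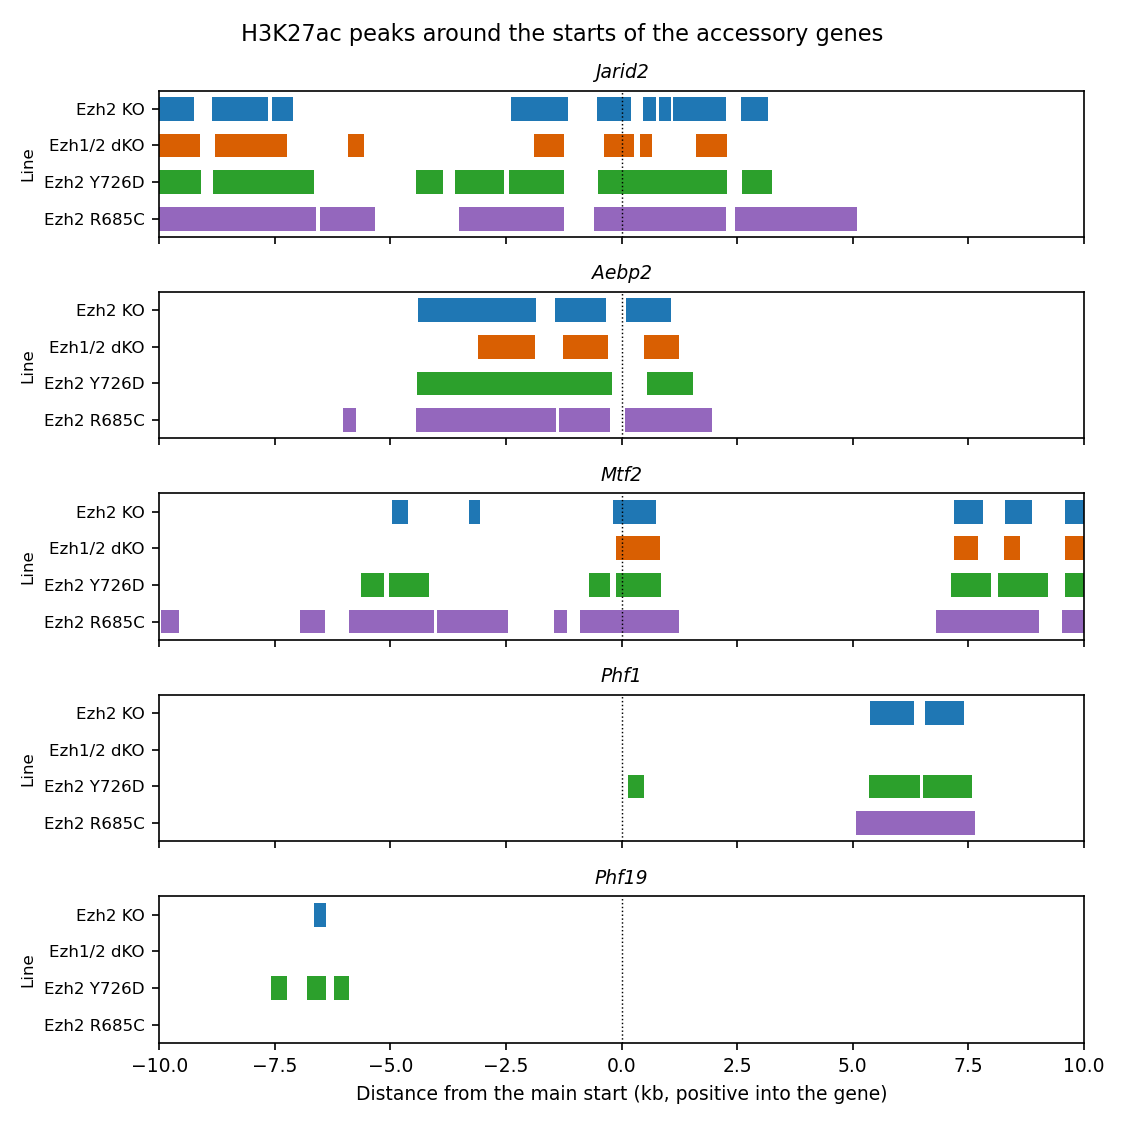
H3K27ac peaks (bars) in the 4 mutant lines within 10 kb of the main start of each accessory gene, as distance in kb, positive into the gene. *Jarid2* and *Mtf2* have a peak over the main start in each of the 4 lines, *Aebp2* has peaks on both sides of it, *Phf1* a 333 bp peak in *Ezh2* Y726D cells, and *Phf19* none within 5 kb.

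The lists of H3K27me2 and H3K27me1 hold broad regions of low enrichment, which makes presence alone a weak readout. H3K27me2 was found at all 5 members in *Ezh1/2* dKO (86.2% of all genes) and in *Ezh2* Y726D cells (87.6%), at 4 in WT (81.3%) and at 1 in *Ezh2* KO cells (51%). Lines without PRC2 activity thus had regions at no fewer members than WT, and in these 3 lines the highest -log10 p of a member was between 1.2 and 2.3. The exception was *Phf19* in *Ezh2* KO cells, where a region of 13757 bp (chr2:34760859-34774615) with a -log10 p of 5.5, above 99.1% of its list, was found and 87.3% of the promoter window was covered, compared with 12.7% in WT, 30.8% in *Ezh1/2* dKO and 11% in *Ezh2* Y726D cells. The other 4 members had 0 bases of H3K27me2 in *Ezh2* KO cells. For the lines without PRC2 activity, the paper reports loss of every methylated form of H3K27 in western blots. A listed region in those lines therefore does not show that the mark was present.

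Over the windows around all annotated starts, H3K27me1 also differed between *Phf19* and the other members. In WT it was found at *Jarid2* (38.2% of the window), *Aebp2* (71.2%), *Mtf2* (12.4%) and *Phf1* (86.4%) but not at *Phf19*, against 74.9% of all genes. Within 5 kb of the main start alone, WT coverage was 6.14% for *Jarid2*, 33.8% for *Aebp2* and 86.4% for *Phf1*. There it was 0% for *Mtf2* as for *Phf19*, so in WT *Mtf2* differed from *Phf19* only at internal starts. In *Ezh2* KO cells it was found at *Phf19* (66.0%) and at none of the other 4, against 60.2% of all genes. In windows of 10 kb, 3 members had H3K27me1 in *Ezh2* KO cells. In *Ezh1/2* dKO cells *Phf19* (38.6%) and *Aebp2* (5.30%) had regions, 2 of the 4 members on listed chromosomes (77.6% of genes there), and in *Ezh2* Y726D cells *Phf19* (37.0%), *Phf1* (23.5%) and *Mtf2* (6.52%) did, 3 of 3 (85.2%). The *Aebp2* region in *Ezh1/2* dKO cells lay 15188 to 16961 bp inside the gene, 1131 bp from an internal start, with 0% covered around the main start. *Jarid2* in both lines and *Aebp2* in *Ezh2* Y726D cells were on chromosomes without regions in the list and were not counted. The highest -log10 p of H3K27me1 at *Phf19* was 1.6 in each mutant line. In the lines without PRC2 activity, a listed region does not show that H3K27me1 was present, for the reason given for H3K27me2.

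**Figure D5:**
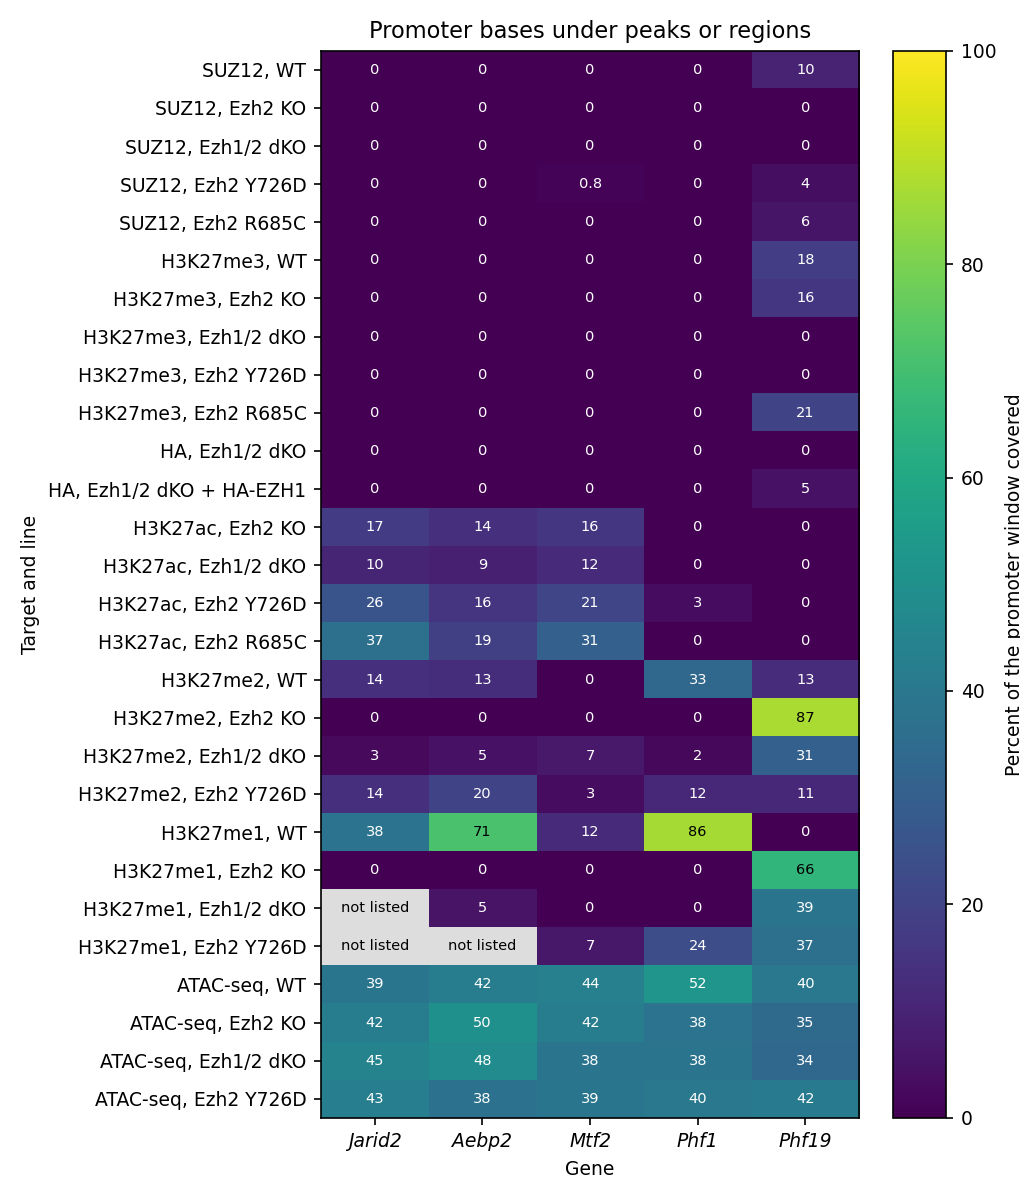
Percent of the promoter window (5 kb around every annotated start) of each gene under peaks or broad regions, with 1 row per target and line and the value in each cell, and grey cells where the chromosome has no entry in the list used. *Phf19* alone has values above 0 for H3K27me3, and its H3K27me2 in *Ezh2* KO cells (87.3%) is the highest value of the plot.

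Accessible regions in ATAC-seq were found at all 5 members in each of the 4 lines with RNA-seq, and at 99.1% of all genes in *Ezh2* KO, 99% in WT, 99% in *Ezh1/2* dKO and 99% in *Ezh2* Y726D cells. Their -log10 p was between 1.5 and 3.9 at its highest for each gene and line, and they covered 33.8% to 52.2% of the windows. For *Phf19* 41.7% of the window was covered in *Ezh2* Y726D, 40.1% in WT, 34.7% in *Ezh2* KO and 33.8% in *Ezh1/2* dKO cells. With nearly every gene listed, these regions do not tell the members or the lines apart.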

How the data were processed

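Mouse ESC lines were profiled by RNA-seq, ChIP-seq and ATAC-seq. For RNA-seq the authors aligned reads to mm9 with TopHat and removed duplicate reads with Picard. They counted the remaining reads per gene with HTSeq-count without regard to strand and divided them by DESeq2 size factors. The deposited normalized counts are therefore a signal per gene and library, and 100% of values were whole multiples (tolerance 0.001) of 1 read. For the peak lists the authors used Bowtie, Picard and MACS2. The deposited lists give positions with -log10 p and, as a ratio to background, fold enrichment, except HA (positions only). The deposited comparisons with WT (log2 fold changes and p-values by DESeq2) were not used.

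Here log2(normalized count + 1) was fitted with limma 3.58.1 in R 4.3.3 (trend, all 8 libraries, no block, mean normalized count of at least 5, Benjamini-Hochberg adjustment over 13872 genes). As alternatives, the reads recovered from the table were tested with edgeR 4.0.16 and with DESeq2 1.42.0. Tested on simulated data for *Ezh2* KO against WT with 13872 genes, limma found 172 of 200 genes changed 4-fold, with 17 false calls. Recovery among weakly expressed genes was not assessed on its own. Replicate numbers were not used as pairs, since no source ties same-numbered libraries.

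Peaks were joined with Python 3.11.15, numpy 2.4.6 and pandas 2.3.3 to GENCODE starts of mm9, and figures were drawn with matplotlib 3.10.9. By symbol 16570 genes were matched, 854 through a synonym and 631 not. Overlaps needed 1 bp. Narrow lists were limited to 1e-10 in p, as in the Reporting Summary (the methods give a weaker threshold), and broad lists were used as deposited. Promoter CpG counts came from the mm9 genome sequence. H3K27me3 and SUZ12 labels that name Y726D but not the *Ezh1* deletion were read as the same line. Marks and lines other than those named were not analysed here.

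The members and gene lists were chosen with earlier results of these data known. Named are the 5 members, the PRC2 core, other PRC2-associated proteins and relatives of *Jarid2* as lists, and for each member the 2 genes whose centred log2 values differed least over the 8 libraries (root mean square, mean of at least 50). *Thy1* was named after its values were seen. Alternatives changed pseudocount, filter, scaling, test, libraries, replicate block, peak threshold, window and start.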

Additional observations from a re-analysis of the deposited data

How the results depend on the processing

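Of 204 alternative values of the members' fold changes against WT, 192 kept direction and side of the threshold, and of 204 between mutant lines 189 did. Reversed against WT were *Phf1* in *Ezh2* KO (-0.05 by edgeR, -0.05 by DESeq2) and, by quantile normalization, *Mtf2* (0.07) and *Phf1* (-0.40) in *Ezh1/2* dKO cells. Between *Ezh1/2* dKO and *Ezh2* KO cells, quantile normalization reversed *Aebp2* (0.04, and 0.01 by upper-quartile rescaling), *Mtf2* (0.08), *Phf1* (-0.52) and *Phf19* (-0.03), and between *Ezh2* Y726D and *Ezh1/2* dKO cells *Jarid2* (-0.06). Leaving out 1 library gave, against WT, in *Ezh2* KO cells -0.21 to 0.01 (*Mtf2*), -0.43 to 0.50 (*Phf1*) and -0.55 to 1.45 (*Phf19*), in *Ezh1/2* dKO -0.10 to 0.32 (*Jarid2*) and -0.24 to 0.69 (*Phf1*), and in *Ezh2* Y726D cells 0.38 to 1.17 (*Aebp2*) and -0.08 to 1.10 (*Phf1*), with 0 to 1 members called. Between *Ezh1/2* dKO and *Ezh2* KO it gave -0.10 to 0.02 (*Aebp2*) and -0.16 to 0.05 (*Mtf2*), between *Ezh2* Y726D and *Ezh1/2* dKO -0.05 to 0.26 (*Jarid2*), -0.30 to 0.88 (*Phf1*) and -0.66 to 0.85 (*Phf19*), and between *Ezh2* Y726D and *Ezh2* KO -0.24 to 0.07 (*Jarid2*) and -0.11 to 1.07 (*Phf1*). *Phf1* and *Phf19* could not be tested at a mean of at least 20.

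All genes called in *Ezh2* KO cells numbered 56, and 35 without a filter, 34 by quantile normalization, 30 by edgeR, 144 by DESeq2, 28 with only the 4 libraries compared, 34 with the replicate block and 6 to 153 without 1 library (6 without *Ezh2* KO replicate 2, 153 without WT replicate 2). In *Ezh1/2* dKO cells 557 became 3 to 729 (5 and 3 without *Ezh1/2* dKO replicate 1 or 2), and in *Ezh2* Y726D cells 377 became 157 to 547 and, with only the 4 libraries compared, 32. The replicate block changed no member's call. The deviations of same-numbered libraries correlated at 0.22 to 0.29 between mutant lines and at -0.41 to -0.07 between these and WT, and *Jarid2* and *Phf19* were higher in replicate 1 than in replicate 2 of each mutant line. The cause of these shifts was not tested, and a lone library was assumed to vary like the other lines.

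Members with a peak numbered 0 for SUZ12 in *Ezh2* Y726D at a p of at most 1e-20. In windows of 10 kb they were 5 for H3K27ac, 2 for H3K27me2 and 3 for H3K27me1 in *Ezh2* KO and 4 for H3K27me1 in *Ezh1/2* dKO cells, and in windows of 1 kb 2, 3 and 3 for H3K27me2 in WT, *Ezh1/2* dKO and *Ezh2* Y726D and 1 for H3K27me1 in *Ezh1/2* dKO cells. From the longest coding transcript alone, *Ezh1/2* dKO cells had 3 with H3K27me2 and 1 with H3K27me1. Only narrow blocks inside broad regions left H3K27me2 at 0 members in WT, *Ezh1/2* dKO and *Ezh2* Y726D, H3K27me1 at 1 in WT and 0 in each mutant line, and ATAC-seq at 2 in *Ezh2* KO and 0 in WT and the other mutant lines. The other 116 of 138 peak counts stayed within 1.5 times. Of 263 covered lengths, 43 did not move.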

Other observations

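The genes whose pattern over the 8 RNA-seq libraries was most like that of a member, among 9770 or 9771 candidates, are given by the root mean square difference of centred log2 values, as a description. For *Jarid2* they were *Mettl10* (0.0631) and *Gosr1* (0.0649), beside a standard deviation of *Jarid2* itself of 0.193. For *Aebp2* (0.342) they were *Gabbr1* (0.105) and *Atf7* (0.106), and for *Mtf2* (0.113) *Wbp4* (0.0339) and *Prps1l3* (0.0343). Among these candidates, which had a mean of at least 50, none came as close to *Phf1* (mean 18.32) and *Phf19* (10.91). Genes with counts as low as theirs were not searched. *Phf1* (0.434) was nearest to *Pld6* (0.222) and *Zfp820* (0.235), and *Phf19* (0.906) to *Cldn6* (0.461) and *Camkv* (0.466).

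Marker lists of other cell types differed between lines by limma. *Thy1*, the 1 fibroblast marker tested, was higher in *Ezh1/2* dKO (3.53 on the log2 scale, limma adjusted p = 0.00942) and *Ezh2* Y726D cells (3.30, 0.013). Of 4 tested primitive endoderm markers 2 were called higher in *Ezh1/2* dKO cells, where the list of 6 summed to 145.1 to 170.5 normalized counts against 20.01 to 35.62 in WT, and of 4 trophectoderm markers 1 was in *Ezh1/2* dKO and 1 in *Ezh2* Y726D cells. None of the 4 neural and 3 mesoderm markers was called by limma. Their part in the values of the accessory genes was not tested.

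Within 5 kb of the *Phf19* starts the annotation also lists *Gm13448*, a lincRNA 1105 bp from the start of Phf19-001 on the opposite strand, and a U6 snRNA, so the gene to which a peak there belongs cannot be told apart.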
